A study of Homo sapiens with 19 samples.

Results

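A broken chromosome can be mended from an intact copy by homologous recombination or rejoined directly by end joining, and the 48 genes described here encode proteins that sense breaks, trim their ends, signal from them or carry out these repairs. They were chosen by symbol from a list drawn up because the INO80 chromatin remodeller acts at DNA breaks. Earlier results of these data were known when the genes were chosen. All 48 were found among the 34825 gene symbols measured (MRE11A is listed as MRE11). In recombination the MRN complex and CtIP begin to trim the ends, nucleases and helicases lengthen the single strand, and BRCA1, PALB2 and BRCA2 prepare it, with the help of paralogs such as RAD51B and XRCC3, to invade the intact copy. The Fanconi anaemia proteins call on the same machinery where crosslinked DNA stalls a replication fork, and many of these genes are transcribed most in dividing cells.

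The data are stranded mRNA sequencing of HepG2, a human liver cancer cell line that is 1 line grown in culture. In the first experiment, cells were transfected at 50 nM with control siRNA (NTG) or with siINO80#1 or siINO80#2, both against the INO80 ATPase, with 3 libraries per group taken 72 h after transfection. In the second, 1 µM EPZ-6438, an inhibitor of the histone H3K27 methyltransferase EZH2, or DMSO was added 3 days before transfection with NTG or with an siRNA against MCRS1, a subunit of the INO80 complex that also belongs to the NSL complex. This gave 2 libraries of DMSO with NTG, 3 of DMSO with siMCRS1, 3 of EPZ-6438 with NTG and 2 of EPZ-6438 with siMCRS1.

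Values are normalized counts, meaning reads per gene divided by 1 size factor per library. Depth was 17093574 to 25369547 reads a library for INO80 knockdown and 26038505 to 47397233 for MCRS1 knockdown and EPZ-6438. All 10 hepatocyte markers checked (ALB and APOB among them) were at 1879 normalized counts or more in every library, and of 4 leukocyte markers PTPRC reached at most 35.9 and CD3E at most 3.23, while CD68 (579 to 1597) and LYZ (35876 to 68408) were well expressed. Replicates within a group differed by more than counting noise (chi-square per degree of freedom 9.45 or more), and siINO80#2 C stood furthest from its own group, at 84.3 and 121. INO80 mRNA was at 1278, 1338 and 1175 normalized counts with NTG, at 576, 639 and 609 with siINO80#1 and at 439.8, 456 and 483 with siINO80#2. MCRS1 fell to 7.99% of the NTG mean in DMSO and to 7.93% in EPZ-6438. No label says that replicates came from separate cultures, so the p-values measure only the spread between these libraries.

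Genes averaging 10 normalized counts or more within an experiment were tested (14034 and 14312), and all 48 repair genes passed in both. Fold changes are on the scale of log2(normalized counts + 1), which understates the change of weakly expressed genes. A gene is called lower or higher where its limma p, Benjamini-Hochberg adjusted over all genes tested, is under 0.05, and every adjusted p given here is of that kind. Normalization sets the median gene near no change, so a call is relative to the rest of the transcriptome.

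Expressed per kilobase of the canonical transcript, the repair genes spanned a wide range in NTG cells of the INO80 experiment. The Ku subunits of end joining stood highest, with XRCC6 at 5047 ± 220.2 normalized counts per kilobase (SD, n = 3) and XRCC5 at 3169 ± 261. PARP1, which marks strand breaks with poly(ADP-ribose), followed at 1023 ± 40.8, and PRKDC, the kinase that Ku recruits, at 742 ± 79.1. None of these 4 overlapped its neighbour in the order. FANCB, a Fanconi core subunit, was lowest at 18.1 ± 1.55.

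The first question was how repair genes respond when the remodeller is depleted. With siINO80#1, 17 of the 48 repair genes were lower and 2 higher, against 20.8% of all genes tested called lower and 20.7% called higher. With siINO80#2, 29 were lower and 2 higher, against 28.4% and 26.6% of all genes. The lower calls were thus 35.4% and 60.4% of the repair genes, and the higher calls 4.17% with each siRNA. The median log2 fold change of the 48 genes was -0.16 and -0.47, beside 0 over all genes for both. Both siRNAs were compared with the same 3 NTG libraries, so these results are not independent of each other. Without siINO80#2 C, that siRNA gave 26 lower and 4 higher repair genes. With the replicate letter as a block, siINO80#1 gave 22 lower and 4 higher, adding BRCA2, RAD51D, ATRIP, FANCF and FANCM as lower and MRE11A and LIG4 as higher.

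**Figure D1:**
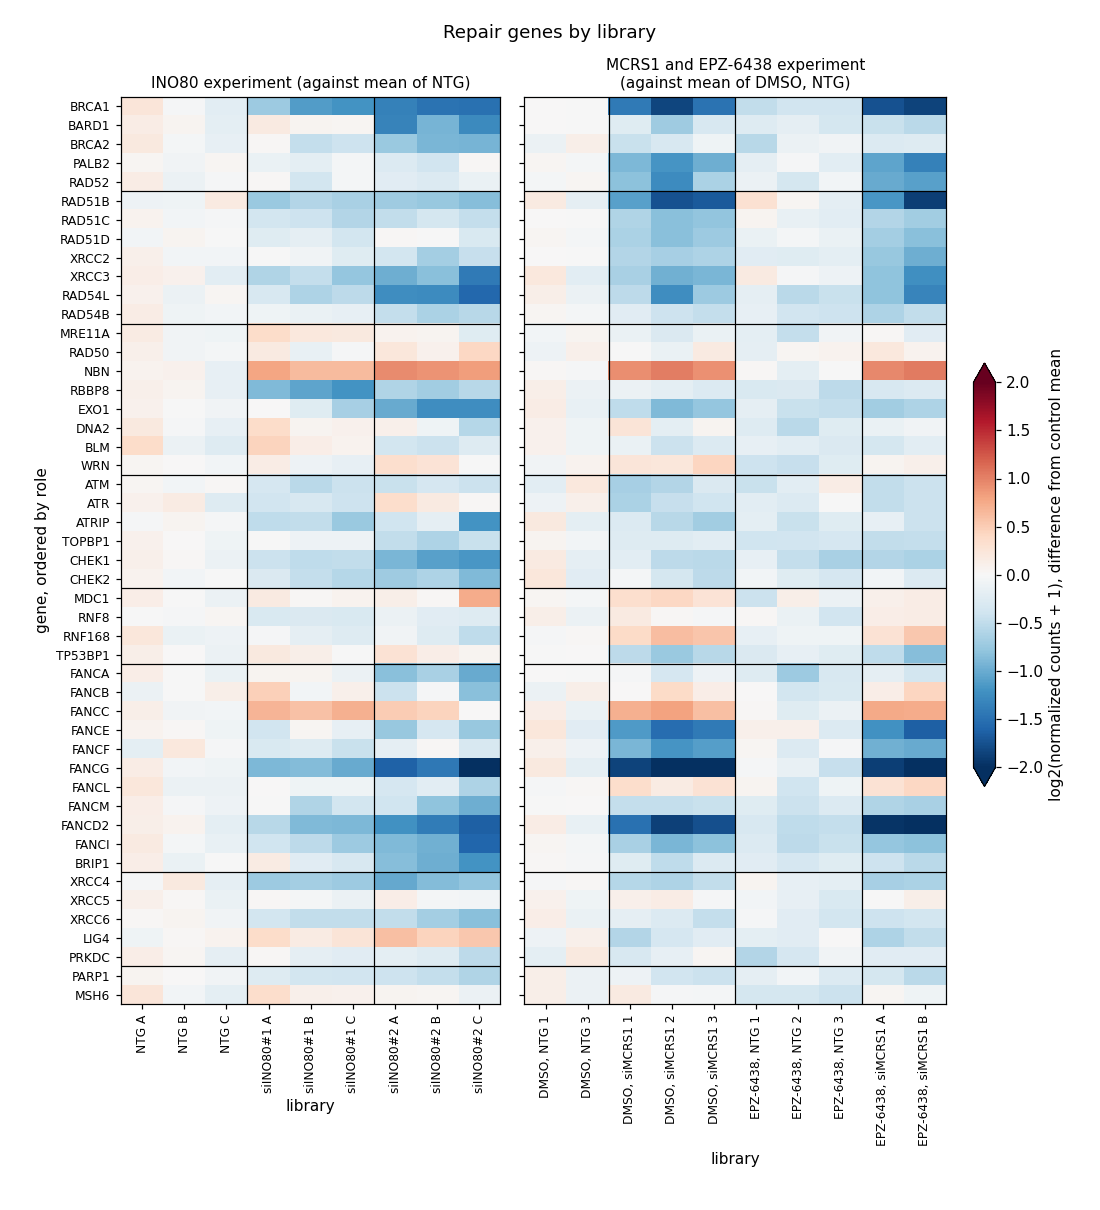
Each row is 1 of the 48 repair genes, in blocks by role, and each column a library; colour gives log2(normalized counts + 1) minus the mean of the control group (NTG on the left, DMSO with NTG on the right), with colours saturating at 2 in either direction. BRCA1, FANCG and FANCD2 are blue in every knockdown library and NBN is red in every one, while BARD1 is blue with siINO80#2 and not with siINO80#1.

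Genes of DNA replication and cell division moved in the same direction. Of 36 S phase and proliferation genes, 21 were lower and 1 higher with siINO80#1, and 33 were lower and none higher with siINO80#2. Their summed level ranged from 68703 to 82358 normalized counts with NTG, from 54215 to 63771 with siINO80#1 and from 30745 to 39032 with siINO80#2, so the groups did not overlap. The part of this in the repair results was not tested. In bulk libraries, fewer cells in a phase of the cycle and less RNA in each cell cannot be told apart.

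BRCA1, which with its partner BARD1 forms a ubiquitin ligase that promotes resection and later steps of recombination, fell with each siRNA. Its level was 1441, 1206 and 1057 normalized counts with NTG, 737, 564 and 533 with siINO80#1 and 479, 439 and 436 with siINO80#2. Every knockdown library lay below every NTG library, and the log2 fold changes were -1.02 ± 0.14 (SE, adjusted p = 0.00021) and -1.44 ± 0.14 (adjusted p = 1e-05). BRCA1 lies on chromosome 17 (GRCh38 43044295-43170327, minus strand).

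BARD1 behaved otherwise. Its level was 279.9, 261 and 219.8 normalized counts with NTG, 286, 261 and 258 with siINO80#1 and 99.8, 132 and 104 with siINO80#2. The siINO80#1 libraries lay within or just above the NTG range, whereas siINO80#2 left less than the lowest NTG library in all 3. BARD1 was called only with siINO80#2 (log2 fold change -1.17 ± 0.14, adjusted p = 4.2e-05).

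BRCA2, a mediator that acts on single-stranded DNA after resection, was at 1092, 936 and 859 normalized counts with NTG, 968, 686 and 716 with siINO80#1 and 569.9, 509 and 502 with siINO80#2. The siINO80#2 libraries were below all others (log2 fold change -0.86 ± 0.13, adjusted p = 3e-04). With siINO80#1 the value was -0.29 ± 0.13 and was not called (adjusted p = 0.11), but it was called with the replicate letter as a block (adjusted p = 0.017) and, at -0.45, without siINO80#1 A, the highest library of its group. PALB2, which bridges BRCA1 and BRCA2, and RAD52, which anneals single strands, were called with neither siRNA, and their log2 fold changes lay between -0.21 and -0.12.

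The paralogs RAD51B, RAD51C, RAD51D, XRCC2 and XRCC3 and the motors RAD54L and RAD54B, which assist strand exchange with the intact copy, gave no log2 fold change above 0 against NTG. Of these 7 genes 4 were lower with siINO80#1 and 6 with siINO80#2. RAD51B was at 85.9, 87.3 and 105 normalized counts with NTG, 54.8, 61.5 and 58.6 with siINO80#1 and 56.1, 54.4 and 51 with siINO80#2. No knockdown library came near the NTG libraries, and the log2 fold changes were -0.65 ± 0.15 (adjusted p = 0.0051) and -0.77 ± 0.15 (adjusted p = 0.0013).

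RAD54L was lower again with siINO80#2 than with siINO80#1. Its level was 442, 384 and 430.1 normalized counts with NTG, 336, 272 and 290.3 with siINO80#1 and 176, 175 and 139.8 with siINO80#2. The 3 groups did not overlap, and the log2 fold changes were -0.49 ± 0.12 (adjusted p = 0.0098) and -1.35 ± 0.12 (adjusted p = 8.3e-06). XRCC3 (-0.62 and -1.07) and RAD51C (-0.46 and -0.44) were also called with each. The paralog XRCC2 (-0.1 and -0.5) and the motor RAD54B (-0.12 and -0.56) were called with siINO80#2 alone, and the paralog RAD51D (-0.26 and -0.1) with neither. XRCC3 shares 76.7% of its exonic bases with KLC1 on the other strand, RAD54B 66% with FSBP on its own strand and RAD54L 19.9% with LRRC41, and it is not stated whether counting used the strand, so these genes' counts are uncertain.

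NBN rose with each siRNA. It encodes nibrin, which with MRE11 and RAD50 forms the MRN complex that binds broken ends and activates ATM. NBN was at 987, 999.8 and 840 normalized counts with NTG, 1629.8, 1465 and 1453 with siINO80#1 and 1809, 1758 and 1669 with siINO80#2. Every knockdown library exceeded every NTG library, and the means were 161% and 185% of the NTG mean (log2 fold changes 0.69 ± 0.08, adjusted p = 0.00011, and 0.89 ± 0.08, adjusted p = 1e-05). Its MRN partners were not called with either siRNA, with MRE11A at 0.26 and -0.04 and RAD50 at 0 and 0.24.

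Among the resection factors, RBBP8 (CtIP) and EXO1 differed between the siRNAs; RBBP8 was singled out after its values were seen. RBBP8, which starts resection with MRN, was at 1371, 1329 and 1132 normalized counts with NTG, 692, 609.8 and 556 with siINO80#1 and 837, 787 and 867 with siINO80#2. It was lowest with siINO80#1 (log2 fold change -1.04 ± 0.1, adjusted p = 2.4e-05) and fell less with siINO80#2 (-0.62 ± 0.1, adjusted p = 4e-04). EXO1, a long-range resection nuclease, showed the other order.

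EXO1 was at 349, 326 and 313 normalized counts with NTG, 331, 279 and 208 with siINO80#1 and 163, 139 and 139 with siINO80#2. All siINO80#2 libraries were under the lowest of the others (-1.16 ± 0.16, adjusted p = 1e-04), and siINO80#1 was not called (-0.3 ± 0.16, adjusted p = 0.16). The nuclease DNA2 (0.17 and -0.19) and the RecQ helicases BLM (0.21 and -0.35) and WRN (-0.04 and 0.2) were called with neither siRNA. Over the 8 genes of break sensing and resection, 1 was lower with siINO80#1 and 2 with siINO80#2.

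Of the 6 damage kinase and checkpoint genes, 4 were called lower with siINO80#1 and 5 with siINO80#2, beside 20.8% and 28.4% of all genes. ATM, the kinase activated at double-strand breaks, was at 2983, 2815 and 2959 normalized counts with NTG, 2311, 2006 and 2169.7 with siINO80#1 and 2154, 2307 and 2159 with siINO80#2. The knockdown groups lay side by side and wholly under NTG (log2 fold changes -0.43 ± 0.07, adjusted p = 0.00065, and -0.4 ± 0.07, adjusted p = 0.00062).

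ATR, the kinase activated by single-stranded DNA, had no common direction. It was at 712, 758 and 566 normalized counts with NTG, 514, 538 and 505 with siINO80#1 and 855, 759.7 and 685 with siINO80#2. It was lower with siINO80#1 (-0.37 ± 0.12, adjusted p = 0.025) and overlapped NTG with siINO80#2 (0.18 ± 0.12, adjusted p = 0.21). The siINO80#1 call was lost without any 1 of NTG A, NTG B, siINO80#1 A or siINO80#1 C (adjusted p up to 0.099). The checkpoint kinases CHEK1 (-0.48 and -1.05) and CHEK2 (-0.45 and -0.74) fell with each siRNA. ATRIP, the partner of ATR (-0.58 and -0.59), and TOPBP1, which activates ATR (-0.07 and -0.52), were called with siINO80#2 and not with siINO80#1. The ATRIP call was at adjusted p = 0.045, was lost in edgeR, in DESeq2 and without any 1 library other than siINO80#2 A or B, and DESeq2 called ATRIP with siINO80#1 instead. ATRIP shares 26.7% of its exonic bases with TREX1 on its own strand, so its counts are uncertain in both experiments.

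Genes of chromatin signalling around breaks moved little. The ubiquitin ligase RNF8 was lower with each siRNA (-0.3 and -0.2), though the siINO80#2 call was lost without any 1 of NTG A, NTG B, NTG C, siINO80#2 B or siINO80#2 C, and the ligase RNF168, the adaptor MDC1 and TP53BP1, which limits resection, were not called. MDC1 was at 1542, 1441 and 2381 normalized counts with siINO80#2 beside 1548, 1407 and 1305 with NTG. Its highest value came from siINO80#2 C, the library that stood apart, and without that library MDC1 was again not called, whereas it was called without siINO80#2 B.

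The Fanconi anaemia group held the largest fall with siINO80#2, that of FANCG. Of its 11 genes 3 were lower and 1 higher with siINO80#1, and 8 were lower and none higher with siINO80#2. FANCG, an adaptor in the core ubiquitin ligase, was at 437, 382 and 371 normalized counts with NTG, 212, 216 and 196 with siINO80#1 and 128, 147 and 91.6 with siINO80#2. The groups did not overlap, and siINO80#2 left 30.8% of the NTG mean (log2 fold change -1.71 ± 0.16, adjusted p = 8.9e-06, against -0.92 ± 0.16, adjusted p = 0.00099, with siINO80#1).

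FANCD2, which the core ligase monoubiquitinates together with FANCI at stalled forks, was at 1102, 1072 and 894 normalized counts with NTG, 693, 551 and 543 with siINO80#1 and 441, 386 and 329 with siINO80#2. Again no group overlapped another (-0.78 ± 0.13, adjusted p = 0.00095, and -1.41 ± 0.13, adjusted p = 1e-05). Its partner FANCI was also lower with each (-0.55 and -1.14), though the siINO80#1 call of FANCI was lost without NTG A, NTG B, siINO80#1 B or siINO80#1 C.

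FANCC, a core subunit that binds FANCE, moved the other way. FANCC was at 277, 243 and 245 normalized counts with NTG, 409, 382 and 419 with siINO80#1 and 362, 346 and 256 with siINO80#2. All siINO80#1 libraries exceeded NTG (0.66 ± 0.13, adjusted p = 0.0022), while siINO80#2 C fell inside the NTG range and the siINO80#2 value was not called (0.32 ± 0.13, adjusted p = 0.059). Without siINO80#2 C, FANCC was called higher with siINO80#2 as well.

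BRIP1, the helicase that binds BRCA1, was at 598, 497 and 542 normalized counts with NTG, 612, 467 and 435 with siINO80#1 and 302, 276 and 236 with siINO80#2. It overlapped NTG with siINO80#1 (-0.13 ± 0.14, adjusted p = 0.51) and was well under it with siINO80#2 (-1.01 ± 0.14, adjusted p = 0.00014). The translocase FANCM (-0.33 and -0.73) and the core subunits FANCE (-0.17 and -0.62) and FANCL (-0.06 and -0.38) were likewise called with siINO80#2 alone, and FANCB (0.17 and -0.43) and FANCF (-0.34 and -0.16) with neither. The FANCL call was lost without NTG A or siINO80#2 C. FANCA showed the same split as BRIP1 (0 and -0.84), and its exons share 19.6% of their bases with ZNF276 on the other strand.

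The promoters of the 2 Fanconi genes that fell furthest and of the 1 that rose are shown so that their start regions can be compared. They run from 250 bases before to 50 bases after the annotated start (RefSeq, GRCh38.p14), 5′ to 3′ on the gene's strand, at chr3:10026187-10026486 (plus strand) for FANCD2, chr9:35079893-35080192 (minus strand) for FANCG and chr9:95317660-95317959 (minus strand) for 1 of the 2 listed starts of FANCC. Capitals mark the E2F words TTTCCCGC, TTTGGCGC, TTTCCCGG and TTTGGCGG and the CHR words TTTGAA and TTCGAA, searched on both strands.
FANCD2: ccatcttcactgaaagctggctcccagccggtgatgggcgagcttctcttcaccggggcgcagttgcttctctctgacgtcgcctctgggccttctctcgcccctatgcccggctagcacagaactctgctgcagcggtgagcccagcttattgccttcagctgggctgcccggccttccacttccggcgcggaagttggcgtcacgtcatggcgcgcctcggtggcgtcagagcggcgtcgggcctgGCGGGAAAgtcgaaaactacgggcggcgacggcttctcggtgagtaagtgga
FANCG: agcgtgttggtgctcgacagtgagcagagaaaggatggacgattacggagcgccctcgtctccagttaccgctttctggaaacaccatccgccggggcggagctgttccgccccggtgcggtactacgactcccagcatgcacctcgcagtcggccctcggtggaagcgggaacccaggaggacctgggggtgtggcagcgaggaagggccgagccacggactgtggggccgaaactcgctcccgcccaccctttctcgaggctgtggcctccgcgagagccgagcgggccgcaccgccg
FANCC: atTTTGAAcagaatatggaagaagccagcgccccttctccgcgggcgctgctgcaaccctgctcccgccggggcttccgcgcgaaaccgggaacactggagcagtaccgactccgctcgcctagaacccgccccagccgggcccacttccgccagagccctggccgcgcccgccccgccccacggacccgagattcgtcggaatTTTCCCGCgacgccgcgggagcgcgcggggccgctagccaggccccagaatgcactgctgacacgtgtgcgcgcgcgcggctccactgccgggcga

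FANCD2 held 1 E2F word on its other strand, FANCG none, and the FANCC start shown 1 E2F word and 1 CHR word. The other listed start of FANCC held no E2F or CHR word. Promoters were listed for 41 of the 48 repair genes, 61 in all, and 9 of these (14.8%) held an E2F word, beside 4.31% of all 35116 promoters listed. The word CCAAT was in 44.3% of the repair gene promoters and 34.6% of all promoters, and a CHR word in 6.56% and 16.4%. With siINO80#2, 4 of the 9 genes with an E2F word were lower (median log2 fold change -0.28), beside 22 of the 32 listed without one (median -0.6). With siINO80#1 the numbers were 4 of 9 and 12 of 32, and with siMCRS1 3 and 21 in DMSO and 2 and 15 in EPZ-6438. A match is a description of letters only, and a word outside these windows was not looked for.

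In end joining, the ligation scaffold XRCC4 fell with each siRNA. XRCC4 was at 352, 407 and 316 normalized counts with NTG, 215, 222 and 214 with siINO80#1 and 174, 194 and 206 with siINO80#2. Both knockdown groups lay clear of NTG (-0.71 ± 0.11, adjusted p = 0.00064, and -0.9 ± 0.11, adjusted p = 7.4e-05). The Ku subunits parted, with XRCC6 lower (-0.45 and -0.67) and XRCC5 not called (-0.04 and 0.01).

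PRKDC, the catalytic kinase of end joining, was at 10906, 10221 and 8817 normalized counts with NTG, 10070, 8757 and 8494 with siINO80#1 and 8638, 8338 and 6908 with siINO80#2. Only siINO80#2 lay wholly under NTG (-0.33 ± 0.11, adjusted p = 0.029), and that call was lost without NTG A, NTG B or siINO80#2 C (adjusted p up to 0.11). LIG4, the ligase that XRCC4 holds, was higher with siINO80#2 (0.53) and just missed the threshold with siINO80#1 (0.26, adjusted p = 0.05).

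PARP1 was at 4207, 4110.2 and 3890.1 normalized counts with NTG, 3411, 3159.8 and 3126 with siINO80#1 and 3048, 2927 and 2688 with siINO80#2. The fall was small and held in every library (-0.33 ± 0.07, adjusted p = 0.0035, and -0.5 ± 0.07, adjusted p = 0.00016). The mismatch sensor MSH6 was not called (0.18 and -0.01).

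**Figure D2:**
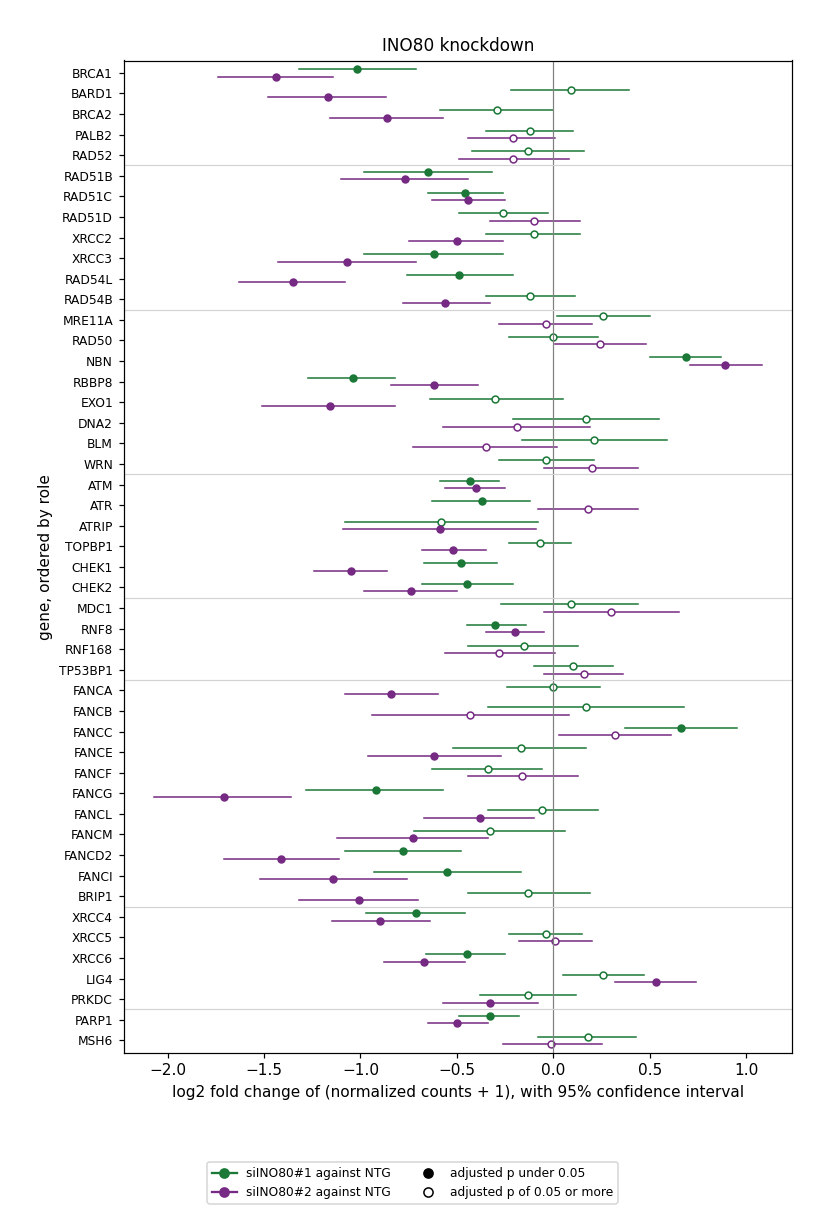
Points give the log2 fold change of each repair gene on the horizontal axis, green for siINO80#1 and purple for siINO80#2, with 95% confidence intervals as lines, and filled points are called. Most purple points lie at or left of the green ones, as at BARD1 (-1.17 against 0.09) and FANCG (-1.71 against -0.92), whereas NBN (0.69 and 0.89) is right of 0 with each siRNA.

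The difference between the INO80 siRNAs was tested directly. With siINO80#2, 15 repair genes were lower and 2 higher than with siINO80#1, against 12.6% and 9.48% of all genes tested, and the median difference was -0.26 (all genes -0.01). INO80 itself was lower with siINO80#2 (log2 difference -0.4 ± 0.08, adjusted p = 0.0058), as were 33 of the 36 S phase and proliferation genes. The largest differences were those of BARD1 (-1.26 ± 0.14, adjusted p = 3e-04), BRIP1 (-0.88 ± 0.14, adjusted p = 0.0019), RAD54L (-0.87 ± 0.12, adjusted p = 0.0012) and EXO1 (-0.87 ± 0.16, adjusted p = 0.0036). The 2 higher genes were ATR (0.56 ± 0.12, adjusted p = 0.0076) and RBBP8 (0.43 ± 0.1, adjusted p = 0.013). For RAD51B the difference was -0.11 with a 95% interval of -0.44 to 0.22, for RAD51C 0.01 (-0.18 to 0.21) and for ATM 0.03 (-0.12 to 0.19). The BRCA1 difference was called (-0.42 ± 0.14, adjusted p = 0.049) but lost under most alternatives.

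The same genes were then compared after loss of MCRS1. With siMCRS1 in DMSO, 26 repair genes were lower and 4 higher, against 24.6% and 23.1% of all genes tested, with a median log2 fold change of -0.38 (all genes 0). In EPZ-6438, 18 were lower and 7 higher, against 26.9% and 26.8%, with a median of -0.21 (all genes 0.01). With libraries set to equal totals instead, the split became 34 lower and 3 higher in DMSO and 28 lower and 3 higher in EPZ-6438, while the median over all genes moved to -0.23 in both. Without EPZ_siMCRS1 B, 13 were lower and 4 higher in EPZ-6438, and the calls of RAD54L, WRN, TP53BP1, FANCB, FANCL, FANCM, FANCI and LIG4 were lost. In DMSO, the calls of BARD1, RAD54B and BRIP1 were lost without DMSO_NTG 1, DMSO_NTG 3 or DMSO_siMCRS1 2. Of the S phase and proliferation genes, 23 were lower and 1 higher in DMSO and 15 were lower and 5 higher in EPZ-6438. Their summed level was 192421 to 232163 normalized counts in DMSO with NTG and 153232 to 182740.4 with siMCRS1, and 166244 to 199345 in EPZ-6438 with NTG and 165499 to 165779 with siMCRS1. Its part in the repair results was not tested.

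BRCA1 fell with siMCRS1 in each treatment. It was at 3278 and 3225 normalized counts in DMSO with NTG and at 1217, 906 and 1163 with siMCRS1, and at 2319, 2496 and 2499 in EPZ-6438 with NTG and at 970.4 and 898 with siMCRS1. The knockdown and control libraries were far apart in both treatments (-1.58 ± 0.13, adjusted p = 1.6e-05, and -1.38 ± 0.13, adjusted p = 1.6e-05).

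BRCA2 did not follow. It was at 2023 and 2372 normalized counts in DMSO with NTG, 1610.3, 1747 and 2071 with siMCRS1, 1485, 2020.4 and 2093 in EPZ-6438 with NTG and 1812 and 1824 with siMCRS1. The groups overlapped in both treatments, and neither value was called (-0.28 ± 0.16, adjusted p = 0.17, and -0.02 ± 0.16, adjusted p = 0.92). With equal totals BRCA2 was called lower in DMSO. PALB2, which was not called with either INO80 siRNA and was singled out after its values were seen, was lower with siMCRS1 (-1.02 and -1.07).

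PALB2 was at 2540 and 2385 normalized counts in DMSO with NTG and at 1313, 1080.5 and 1252 with siMCRS1. RAD52 was lower too (-0.91 and -0.88), and BARD1 was called in DMSO alone (-0.42 and -0.22). Of the 7 paralogs and RAD54 motors, 7 were lower in DMSO and 6 in EPZ-6438.

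RAD51B was the most reduced of these. It was at 200.1 and 155 normalized counts in DMSO with NTG, 82.4, 51.8 and 54.4 with siMCRS1, 217, 180.4 and 153 in EPZ-6438 with NTG and 78.4 and 47 with siMCRS1. The groups did not overlap in either treatment (35.4% and 34.2% of the control mean, log2 fold changes -1.5 ± 0.29, adjusted p = 0.0015, and -1.56 ± 0.29, adjusted p = 0.00095). RAD54L was lower with wider scatter between libraries (-0.83 ± 0.22 and -0.67 ± 0.22), and RAD51C (-0.74 and -0.54), RAD51D (-0.73 and -0.66), XRCC2 (-0.62 and -0.64) and XRCC3 (-0.84 and -1.04) were lower in each treatment. RAD54B was called in DMSO alone (-0.38 and -0.23).

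FANCG showed the largest change of any repair gene. FANCG was at 1056 and 799 normalized counts in DMSO with NTG, 253, 154 and 195 with siMCRS1, 899.6, 826 and 664 in EPZ-6438 with NTG and 248 and 124 with siMCRS1. Between 21.6% and 23.4% of the control mean was left (-2.22 ± 0.29, adjusted p = 0.00018, and -2.16 ± 0.29, adjusted p = 0.00014).

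FANCD2 was at 2984 and 2414 normalized counts in DMSO with NTG, 950.4, 738 and 796 with siMCRS1, 2161, 1889 and 1939 in EPZ-6438 with NTG and 687 and 535 with siMCRS1. The knockdown libraries were far under the controls in either treatment (30.7% and 30.6% of the control mean, -1.7 ± 0.15, adjusted p = 2.5e-05, and -1.71 ± 0.15, adjusted p = 1.4e-05). FANCE, the core subunit that contacts FANCD2, had a like fall.

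FANCE was at 441 and 322 normalized counts in DMSO with NTG, 171, 130 and 140.4 with siMCRS1, 405, 404 and 310.1 in EPZ-6438 with NTG and 162 and 121 with siMCRS1. No knockdown library came up to a control library (-1.36 ± 0.21, adjusted p = 5e-04, and -1.4 ± 0.21, adjusted p = 0.00031). FANCF, another core adaptor (-1.06 and -0.9), FANCI (-0.8 and -0.39) and FANCM (-0.46 and -0.31) were lower as well, BRIP1 was called in DMSO alone (-0.34 and -0.2), and FANCA was not called (-0.16 and 0.16).

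Other core subunits rose. FANCC was at 620.4 and 512 normalized counts in DMSO with NTG, 925, 981 and 852 with siMCRS1, 574, 475 and 521 in EPZ-6438 with NTG and 954 and 942 with siMCRS1. All siMCRS1 libraries were above all NTG libraries (0.7 ± 0.13, adjusted p = 0.0013, and 0.86 ± 0.13, adjusted p = 0.00029). FANCB and FANCL, the latter being the ligase subunit, were called higher in EPZ-6438 alone (0.51 and 0.5), with 0.17 and 0.27 in DMSO. Both calls were lost with equal totals and without EPZ_siMCRS1 B, and that of FANCB also without EPZ_NTG 2, EPZ_NTG 3 or DMSO_siMCRS1 3.

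NBN rose here as well. It was at 2554 and 2472 normalized counts in DMSO with NTG, 4786, 5089.7 and 4724 with siMCRS1, 2559.8, 2206 and 2503 in EPZ-6438 with NTG and 4873 and 5160.4 with siMCRS1. The groups were well apart (194% and 207% of the control mean, 0.95 ± 0.1, adjusted p = 4.4e-05, and 1.05 ± 0.1, adjusted p = 1.6e-05). MRE11A (-0.18 and 0.15) and RAD50 (0.01 and 0.17) were again not called, nor were RBBP8 (-0.2 and 0.07), DNA2 (0.04 and 0.24) and BLM (-0.28 and -0.06), and EXO1 was lower in DMSO alone (-0.72 and -0.29). Equal totals called MRE11A, RBBP8 and BLM lower in DMSO and EXO1 lower in EPZ-6438.

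The helicase WRN was at 1089 and 1203 normalized counts in DMSO with NTG, 1357, 1333 and 1543 with siMCRS1, 855, 834 and 967 in EPZ-6438 with NTG and 1189 and 1233 with siMCRS1. WRN was called in EPZ-6438 (0.45 ± 0.11, adjusted p = 0.0059) and only just in DMSO (0.3 ± 0.11, adjusted p = 0.049). The DMSO call was lost without any 1 of several libraries, with another spread estimate, in edgeR and with quantile normalization. With equal totals the WRN call was lost in both treatments. RNF168, which spreads ubiquitin along chromatin at breaks, was the fourth gene called higher in each treatment.

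RNF168 was at 1949 and 2000.3 normalized counts in DMSO with NTG, 2587, 3017 and 2898 with siMCRS1, 1761, 1862 and 1855 in EPZ-6438 with NTG and 2410.4 and 2859 with siMCRS1. The groups did not overlap in either treatment (0.52 ± 0.11, adjusted p = 0.0024, and 0.52 ± 0.11, adjusted p = 0.0018). TP53BP1, which binds the mark that RNF168 lays, was lower (-0.61 and -0.45), though 28.8% of its exonic bases are shared with TUBGCP4 on the other strand.

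The kinases gave weaker results. ATM was at 3869.9 and 5160.1 normalized counts in DMSO with NTG, 2809, 2988 and 3649.7 with siMCRS1, 3279.5, 3870.4 and 4965 in EPZ-6438 with NTG and 3189 and 3323 with siMCRS1. It was called in DMSO (-0.51 ± 0.18, adjusted p = 0.037), not in EPZ-6438 (-0.29 ± 0.18, adjusted p = 0.2), and the DMSO call was lost without DMSO_NTG 3 (-0.31, adjusted p = 0.29), without siMCRS1 1 or 2, or without EPZ_NTG 2.

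ATR was at 1723 and 1979 normalized counts in DMSO with NTG, 1197, 1348 and 1408 with siMCRS1, 1598, 1533 and 1833 in EPZ-6438 with NTG and 1318 and 1370.4 with siMCRS1. It was called in DMSO (-0.49 ± 0.12, adjusted p = 0.0058, lost without DMSO_NTG 3 with adjusted p = 0.064) and missed the threshold in EPZ-6438 (-0.3 ± 0.12, adjusted p = 0.053). Of the 6 kinase and checkpoint genes, 5 were lower in DMSO and none in EPZ-6438, where edgeR called ATR and equal totals ATM, ATR, TOPBP1 and CHEK1. CHEK1 (-0.43 and -0.18), TOPBP1 (-0.24 and -0.11) and ATRIP (-0.51 and -0.01) were called in DMSO alone, and CHEK2 (-0.3 and 0.04) in neither. Equal totals called CHEK2 lower in DMSO. Without DMSO_siMCRS1 2 only ATR kept its call in DMSO, and without DMSO_NTG 1 the calls of ATRIP, TOPBP1 and CHEK1 were lost.

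XRCC4 was lower in each treatment (-0.56 ± 0.11 and -0.55 ± 0.11), LIG4 was called lower in EPZ-6438 alone (-0.39 and -0.42), and MSH6 was called higher there alone (0.04 and 0.35). The LIG4 call was lost with quantile normalization and without EPZ_NTG 3, and equal totals called LIG4 lower in DMSO as well. The MSH6 call was lost with equal totals and with quantile normalization. MSH6 shares 22.7% of its exonic bases with FBXO11 on the other strand. XRCC5 and XRCC6 were not called, and neither were RNF8 (0.06 and 0.3) and MDC1 (0.34 and 0.28). PRKDC ranged from 13135 to 22499 normalized counts over the control libraries and from 15750.3 to 20384 over the siMCRS1 libraries, so the groups lay within each other (-0.15 ± 0.17 and 0.1 ± 0.17, not called). PARP1 was at 8038 and 6842 normalized counts in DMSO with NTG, 6919.8, 5699.8 and 5526 with siMCRS1, 6532, 7148 and 6112 in EPZ-6438 with NTG and 5815 and 5083 with siMCRS1. These overlapped in DMSO and were not called in either treatment (-0.3 ± 0.13, adjusted p = 0.073, and -0.28 ± 0.13, adjusted p = 0.09). Equal totals and quantile normalization each called PARP1 and XRCC6 lower in both treatments. Quantile normalization also called XRCC5 lower in DMSO, where DESeq2 called XRCC6 lower and MDC1 higher.

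**Figure D3:**
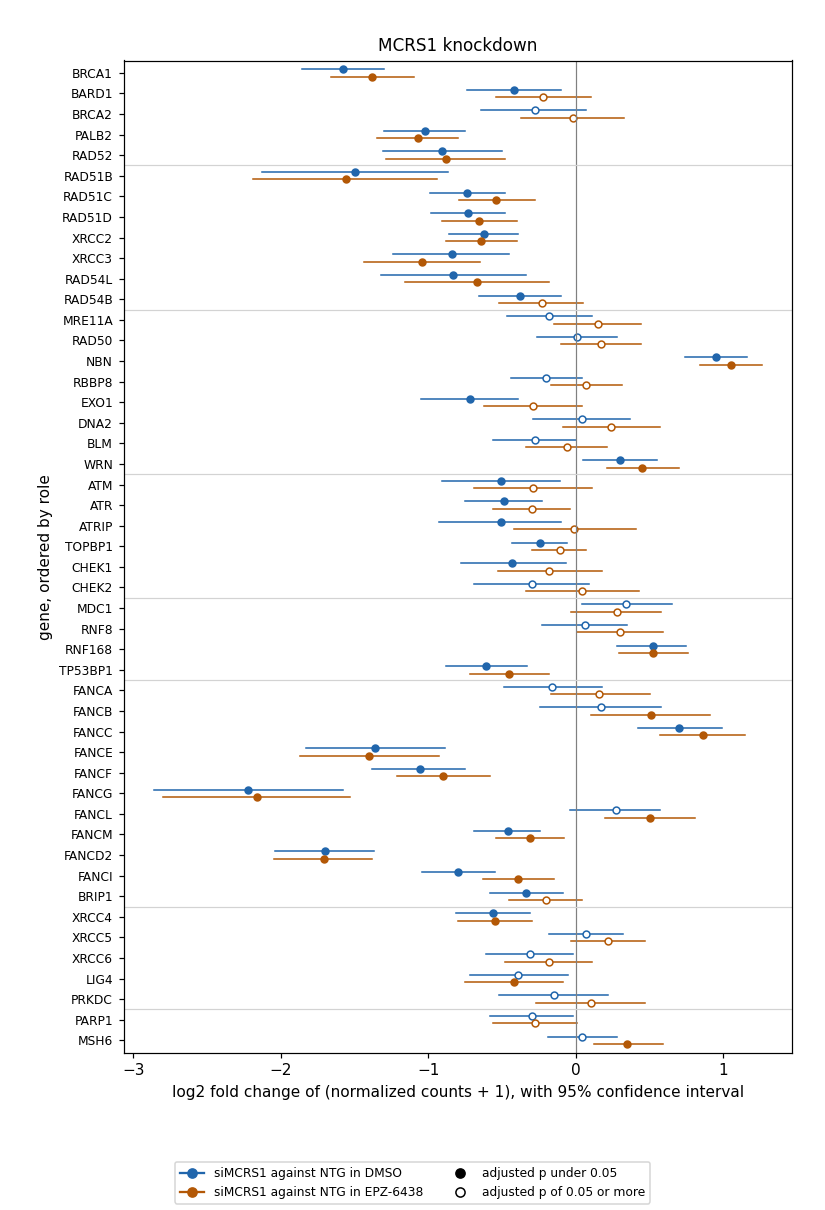
Points give the log2 fold change of each repair gene for siMCRS1 against NTG, blue in DMSO and orange in EPZ-6438, with 95% confidence intervals as lines, and filled points are called. FANCG lies furthest left (-2.22 and -2.16) and NBN furthest right (0.95 and 1.05), and for these genes the blue and orange points nearly coincide.

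The siMCRS1 fold changes of the treatments rest on different libraries and could be set against each other. The calls share a spread estimate taken over all groups of the experiment, so they are not independent of each other. Of the repair genes 17 were lower in both, which is 65.4% of the 26 in DMSO and 94.4% of the 18 in EPZ-6438. Among all genes tested, 22% were lower in both. The 3847 of all genes lower in EPZ-6438 included 3152 that were also lower in DMSO. Of all genes lower in DMSO, 89.5% were also lower in EPZ-6438, so the 65.4% of the repair genes lay below the general share. Higher in both were 4 of the 48 repair genes (FANCC, NBN, RNF168 and WRN, 8.33%), beside 20.8% of all genes. These were 100% of the 4 higher in DMSO, beside 90% of all genes higher there. They were 57.1% of the 7 higher in EPZ-6438, where 2977 of all 3839 such genes were shared. The change of the siMCRS1 effect between treatments was called for no repair gene (interaction, limma, 0% of all genes called). For this interaction, FANCI alone had an unadjusted limma p under 0.05, with a log2 estimate of 0.41. Tests with edgeR and DESeq2 on the recovered reads called no repair gene either.

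The inhibitor alone called no repair gene. In NTG cells, EPZ-6438 against DMSO gave 0 of 48 (limma, 0.384% of all genes called), with 14 at an unadjusted p under 0.05, all of them lower, beside 17.1% of all genes at that level and 8.52% lower. The edgeR test on the recovered reads gave 0 and DESeq2 gave 5, all lower, namely BRCA1, RBBP8, TOPBP1, FANCI and MSH6, where DESeq2 called 721 of all 14312 genes and 288 of them lower. Of the 36 S phase and proliferation genes 32 also lay below 0 and their summed level was 86.1% of that in DMSO, and the part of this in the repair values was not tested. Values lay below 0 for 46 of the 48 genes (95.8%), beside 54% of all genes, and the median was -0.22 beside -0.03 over all genes. All 48 values come from the same libraries, so the genes are not separate observations. TOPBP1 had an unadjusted p of 0.001, with 3866 and 3589 normalized counts in DMSO and 2839.9, 2862 and 2946 in EPZ-6438 (-0.37 ± 0.08, adjusted p = 0.086).

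For BRCA1 the same comparison gave -0.42 with a 95% interval of -0.7 to -0.14 (adjusted p = 0.14), and for NBN -0.06 (-0.27 to 0.15). In siMCRS1 cells, EPZ-6438 against DMSO also gave 0 of 48 (limma, 0.0908% of all genes called), with 3 at an unadjusted p under 0.05 and 0 by edgeR and DESeq2, and the median was -0.07. Only 2 libraries represent DMSO with NTG.

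**Figure D4:**
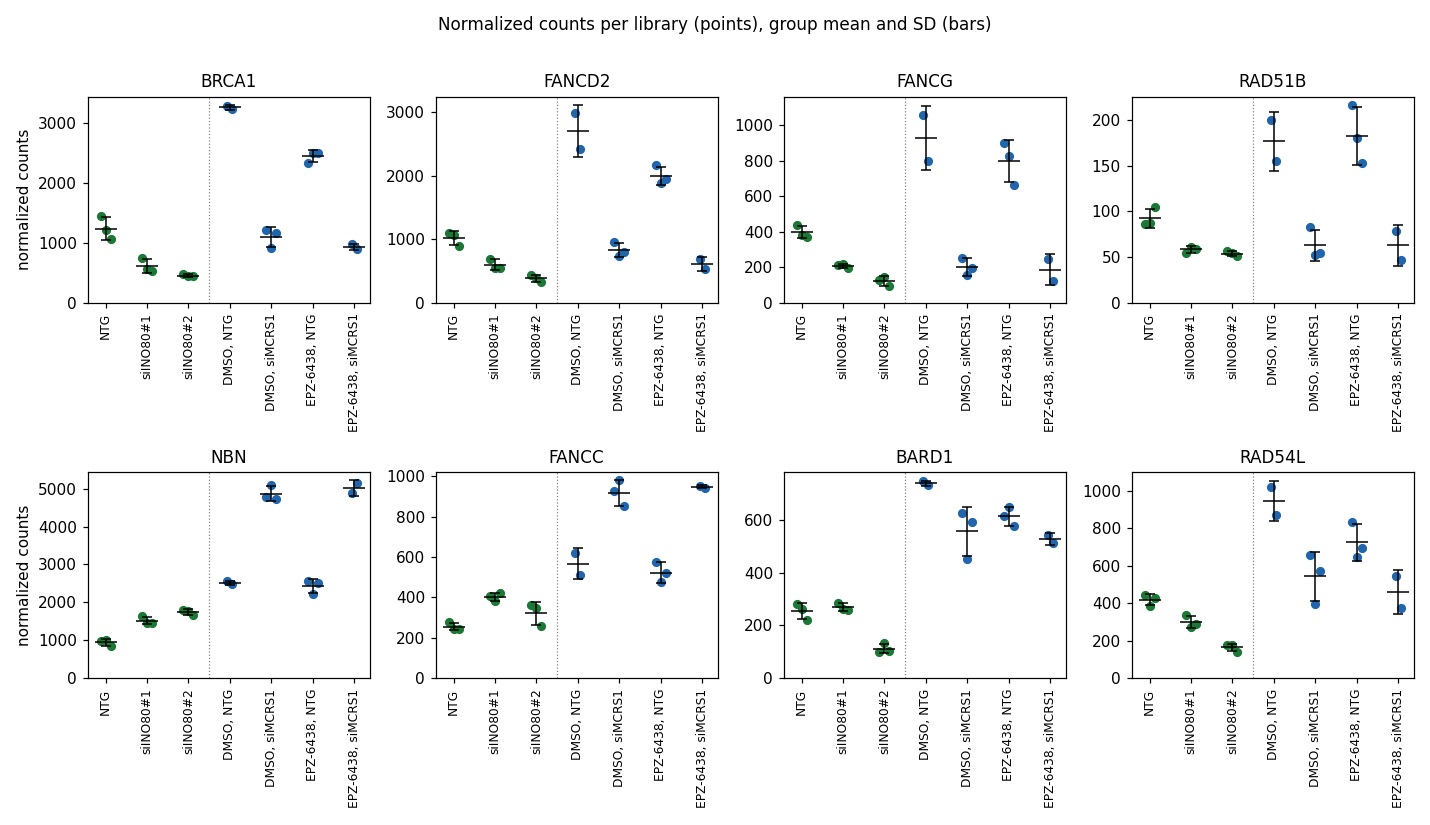
Points are the normalized counts of 8 repair genes in each library, green for the INO80 experiment and blue for the MCRS1 and EPZ-6438 experiment, with bars for the group mean and SD, and vertical axes start at 0. The experiments were normalized separately, so heights compare only within a colour. BRCA1, FANCD2, FANCG and RAD51B are under their controls with each knockdown, NBN is above, and BARD1 is at NTG level with siINO80#1.

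INO80 and MCRS1 knockdown were compared across the experiments, which have separate controls and are each read within their own table. Of the 17 genes lower with siINO80#1, 12 (70.6%) were also lower with siMCRS1 in DMSO, close to the like 63.4% over all genes. These 12 were 46.2% of the 26 lower with siMCRS1, where 1850 of all 3433 such genes were shared. For siINO80#2 the shared number was 20, which is 69% of its 29, beside 55.2% of all genes lower with siINO80#2. These 20 were 76.9% of the 26, where 2200 of all 3433 were shared. Of genes tested in both experiments, 13.7% and 16.3% were lower with both knockdowns. With siMCRS1 in EPZ-6438 the shared part of the genes lower with each INO80 siRNA lay below the general share. There 9 of the 17 (52.9%) were shared with siINO80#1, beside 62.4% of all genes lower with siINO80#1. Of the 29 lower with siINO80#2, 12 (41.4%) were shared, beside 53.9%. Counted from the 18 lower with siMCRS1 in EPZ-6438, these 9 and 12 were 50% and 66.7%. Of all 3712 genes lower there, 1820 and 2147 were shared. Higher with siINO80#1 and with siMCRS1 in DMSO were 2 of the 48 repair genes (NBN and FANCC, 4.17%), beside 13.9% of all genes. With siINO80#2 and siMCRS1 in DMSO only NBN of the 48 was higher, beside 15.5% of all genes. With 2 of the 48 higher with each INO80 siRNA, these shares could not exceed 4.17%. Of the 2 higher with siINO80#1, 100% were shared, beside 65.1% of all genes higher with it. For siINO80#2 the shares were 50% and 57%. INO80 mRNA itself was lower after MCRS1 knockdown (-0.27 with DMSO, -0.35 with EPZ-6438), while MCRS1 mRNA was not called with either INO80 siRNA (-0.07 and -0.14).

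Genes of the same pathways outside the 48 gave the following counts. Of 31 further recombination and fork genes, 16 were lower and 2 higher with siINO80#1, 19 and 1 with siINO80#2, 21 and 0 with siMCRS1 under DMSO and 19 and 2 under EPZ-6438. The furthest with the INO80 siRNAs were EME1, partner of the MUS81 nuclease (-1.38 and -2.01), and RMI2, a subunit of the BLM complex (-1.28 and -2.32), and with siMCRS1 the helicases RECQL5 (-2.13 and -2.53) and RTEL1 (-1.72 and -2.08). Of 11 further Fanconi genes, 3, 8, 6 and 7 were lower in these 4 comparisons and 2, 1, 2 and 3 higher, with the nuclease scaffold SLX4 at -1.06, -1.32, -1.09 and -1.41.

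Counts in other repair pathways follow in the same order, and the lower shares of all genes were 20.8%, 28.4%, 24.6% and 26.9%. In base excision and single-strand break repair, 7, 11, 10 and 8 of 20 genes were lower and 1, 3, 1 and 2 higher, with PARP2 at -0.87 and -1.36 for the INO80 siRNAs and the scaffold XRCC1 at -2.01 in both treatments for siMCRS1. In nucleotide excision repair, 11, 10, 12 and 10 of 20 were lower and 1, 4, 3 and 2 higher, among them the TFIIH subunit GTF2H3 (-1.82 and -1.1) with the INO80 siRNAs and the damage sensor DDB2 (-1.37 and -1.67) with siMCRS1. Of 16 checkpoint clamp and signalling genes, 6, 12, 10 and 9 were lower and 1, 1, 1 and 2 higher, and TIMELESS, which protects forks, was at -0.49, -1.08, -1.17 and -1.28. Of 21 p53 targets, 6, 5, 8 and 8 were lower and 6, 6, 5 and 5 higher.

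**Figure D5:**
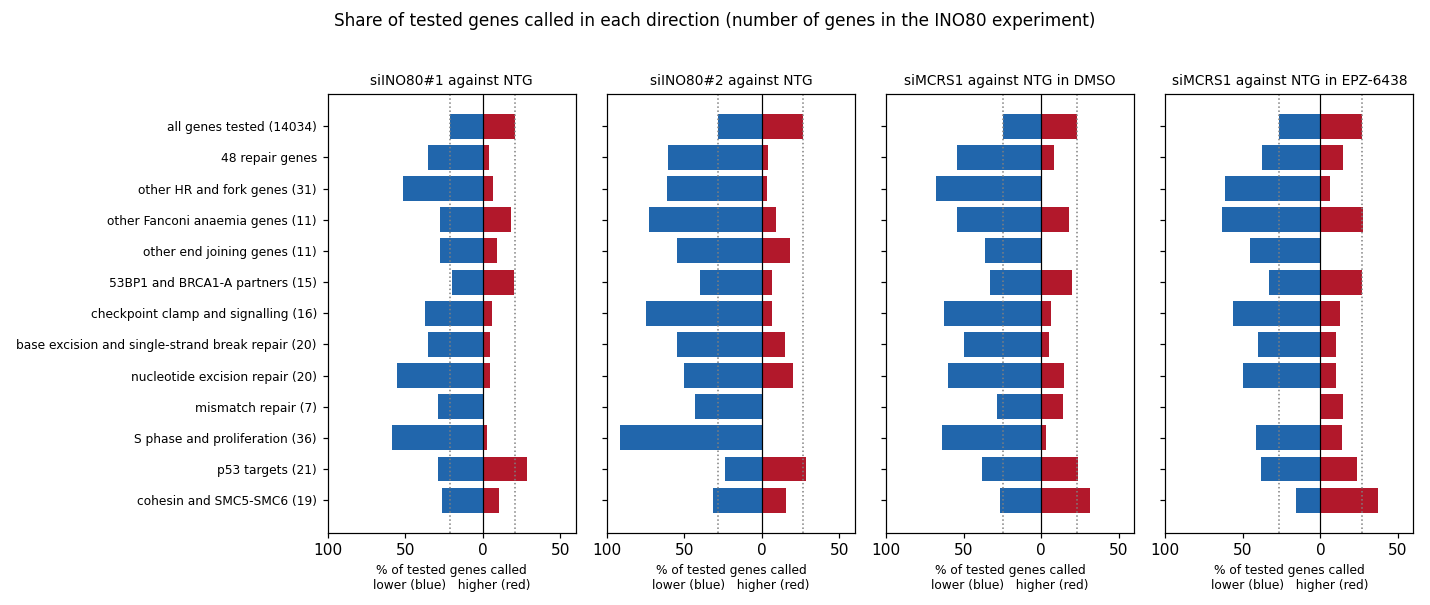
Bars give the percent of tested genes called lower (blue, leftwards) and higher (red, rightwards) for the 48 repair genes and 11 other lists in 4 comparisons, and dotted lines mark the shares among all genes tested. The repair genes reach 35.4%, 60.4%, 54.2% and 37.5% lower, all left of the dotted line, and the S phase and proliferation list reaches 91.7% with siINO80#2.

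Of 15 partners of 53BP1 and the BRCA1-A complex, 3, 6, 5 and 5 were lower and 3, 1, 3 and 4 higher. Other end joining genes gave 3, 6, 4 and 5 lower of 11 and 1, 2, 0 and 0 higher, and mismatch repair 2, 3, 2 and 0 lower of 7 and 0, 0, 1 and 1 higher. Cohesin and SMC5-SMC6 genes gave 5, 6, 5 and 3 lower of 19 and 2, 3, 6 and 7 higher. Across the 41 repair genes that share under 10% of their exonic bases with another gene measured here, 15, 24, 21 and 15 were lower and 2, 2, 4 and 6 higher. Rows named as pseudogenes of repair genes held at most 13.4 normalized counts in any library.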

How the data were processed

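HepG2 mRNA libraries were read from 2 tables, 1 per experiment. The authors deposited normalized counts as a signal per gene symbol, made by dividing reads by DESeq2 size factors, and the submitters' processing notes also name kallisto and GRCh38. Dividing each library by its smallest step gave whole reads for 100% of values (tolerance 0.01 of a step), so read totals and a floor of 3 reads (2.13 to 4.3 normalized counts, counting error only) could be computed. The experiments were normalized separately and tested apart.

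Genes averaging 10 normalized counts or more entered limma (version 3.58.1, R 4.3.3; trend, pseudocount 1), with all groups of an experiment in 1 model and Benjamini-Hochberg adjustment over all genes tested. edgeR 4.0.16 and DESeq2 1.42.0 on the recovered reads, other scalings, filters and pseudocounts, a replicate block and leaving out each library were alternatives. Deviations of same-letter libraries from their group means correlated at 0.25, 0.26 and 0.14 between NTG and siINO80#1, so there the letters were taken to pair libraries and the blocked result is given, but at -0.08 to 0.09 between NTG and siINO80#2. The code was tested on simulated data. Promoters came from RefSeq (GRCh38.p14) and plots from matplotlib 3.10.9.

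The members and all gene lists were chosen with earlier results of these data known. Named with every library were BRCA1, BRCA2, ATM, ATR, PRKDC and PARP1, up to 5 genes per direction called alike by both INO80 siRNAs or by siMCRS1 in both treatments and ordered by the smaller change, and the 4 largest differences between the INO80 siRNAs. Other genes described were chosen after their values were seen.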

Additional observations from a re-analysis of the deposited data

Results flagged for a closer look

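In 4 of the 17 repair genes that differed between the INO80 siRNAs (siINO80#2 minus siINO80#1, limma, adjusted over all genes), the estimates against NTG lay on opposite sides of 0, though that of FANCA with siINO80#1 rounds to 0. BARD1 differed by -1.26, with estimates of 0.09 for siINO80#1 and -1.17 for siINO80#2. FANCA differed by -0.84, with estimates of 0 and -0.84, and BLM by -0.57, with estimates of 0.21 and -0.35, neither of them called. The BLM difference was lost without any 1 siINO80#1 library or without siINO80#2 A or B. ATR differed the other way, by 0.56, from -0.37 with siINO80#1 to 0.18 with siINO80#2. The siRNAs also differed in how much INO80 mRNA was left (48.1% and 36.4% of the NTG mean) and in the summed level of proliferation genes (77.3% and 48%), and the part of either in these differences was not tested.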

How the results depend on the processing

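No called repair gene changed sign under any alternative run. With siINO80#1, 17 to 24 repair genes were called when 1 library was left out and 19 to 26 under the other alternatives. The like ranges were 27 to 33 and 28 to 35 with siINO80#2, and 12 to 18 and 14 to 22 between the INO80 siRNAs. MCRS1 knockdown gave 22 to 29 and 24 to 37 under DMSO, and 17 to 26 and 22 to 31 under EPZ-6438. For EPZ-6438 against DMSO in NTG, DESeq2 called 5 genes where limma called none. Values that changed sign were uncalled. With siMCRS1 in EPZ-6438, PRKDC was at -0.14 with equal totals and -0.34 with quantile normalization, and from -0.03 to 0.23 with 1 library left out, and BRCA2 from -0.18 to 0.07. In DMSO, PRKDC ranged from -0.34 to 0.04 with 1 library left out. The cause was not tested. With the replicate letters as a block, 26 genes were called for siINO80#1, 35 for siINO80#2 and 22 for their difference. The block lost no repair gene call. Over all groups, same-letter libraries correlated at -0.08 to 0.26 (mean 0.1, 9 pairs, beside -0.05 over 18 other pairs). For MCRS1 and EPZ-6438, no paired analysis was possible because all columns but those of EPZ-6438 with siMCRS1 carry numbers where the labels carry letters. With 2 or 3 libraries a group, small changes could not be told from the spread.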
